A study of Canis lupus familiaris with 13 samples.

Results

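Cathepsins, their cystatin inhibitor and ADAM sheddases were followed across 13 primary soft tissue sarcomas of dogs. Soft tissue sarcomas are malignant tumours of connective tissue. Of these, 5 were labelled metastatic and 8 non-metastatic, the second label standing for no metastasis over 1 year or longer. All were untreated when sampled, and the labels give no breed, sex, age or tumour subtype and do not say whether each came from a separate dog. The p-values therefore measure the spread between these samples. Transcripts were read on an Affymetrix canine array as log2 intensities, on which a step of 1 is a doubling, and each gene is read by 1 or more probe sets.

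Members were the array rows annotated with any of 10 symbols: CTSK, CTSB, CTSD, CTSL, CTSS, CST3, ADAM9, ADAM10, ADAM12 and ADAM17. Rows were found for 6 of the 10, out of 15115 genes named on the array, with 13 probe sets among the 42924 tested: 8 probe sets of 4 cathepsins and 5 of 2 ADAM genes. No row carried the symbols CTSL, CST3, ADAM12 or ADAM17 in the annotation used, and these 4 genes were not analysed here. The groups were compared with limma over all 42924 probe sets, and a probe set passed at a Benjamini-Hochberg adjusted p below 0.05.

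Cathepsins are proteases of the lysosome, the acidic compartment in which cells degrade proteins. CTSK, CTSB, CTSL and CTSS are papain-like cysteine proteases, CTSD is an aspartic protease, and cystatin C, the product of CST3, is a secreted inhibitor of the cysteine type. Tumour cells, fibroblasts and macrophages can all release cathepsins, which then cleave collagen and other matrix proteins. ADAM9, ADAM10, ADAM12 and ADAM17 are membrane-anchored metalloproteinases that cut the outer parts of cell-surface proteins free, a step called shedding, and ADAM10 and ADAM17 release growth factors and cytokines and make the first cut that activates Notch receptors.

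CTSK was lower in metastatic tumours at both its probe sets, of which 1 of 2 passed. ADAM10 was higher without passing the test over all probe sets, and no group difference was resolved for CTSB, CTSD, CTSS or ADAM9. Of the 13 probe sets, 1 passed, the second probe set of CTSK, and it was lower. Over all probe sets 4.9% passed, 1.56% as higher and 3.34% as lower, so 1 of 13 is near the background. The median difference of the 13 probe sets, metastatic minus non-metastatic, was -0.238, against 0.0452 over all probe sets. All 8 cathepsin probe sets had negative differences as deposited, a sign shared by 44.9% of all probe sets, but 1 of CTSS turned positive after quantile normalization and 6 of the 8 did with array weights.

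The labelling of the samples was not uniform, as read from bacterial poly-A RNAs that are added to a sample before labelling. Their signal ran along the whole transcript in 9 samples, namely all 5 metastatic ones and non-metastatic replicates 5 to 8. It was missing in non-metastatic replicates 1, 3 and 4, and it was lost toward the 5′ end in non-metastatic replicate 2. The 9 samples are called the common spike-in pattern below, and only they hold both groups. Within them 2.78% of all probe sets passed, 0.578% as higher and 2.2% as lower. Sample medians lay between 6.71 and 6.94. The spike-in probe sets reached at most 7.16 in the samples without spike-in, so a value not above 7.16 is not told apart from the signal of a probe set without its target.

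CTSK, the cathepsin that bone-resorbing osteoclasts and activated fibroblasts use to cleave fibrillar collagen, was among the brightest members. Its second probe set read 11.48, 10.05, 12.11, 11.85 and 10.92 in metastatic replicates 1 to 5. In non-metastatic replicates 1 to 8 it read 12.20, 12.33, 12.78, 12.62, 12.07, 12.24, 12.35 and 12.05. The groups overlapped narrowly: 4 of 5 metastatic tumours lay below every non-metastatic one, and metastatic replicate 3 lay just inside their range. The means were 11.28 ± 0.82 (SD, n = 5) in metastatic and 12.33 ± 0.26 (SD, n = 8) in non-metastatic tumours. The transcript fell by 1.05 ± 0.28 (SE) on the log2 scale, 2.07-fold, with a limma adjusted p of 0.0475.

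The other probe set of CTSK, the brighter of the pair, read 12.01, 10.78, 12.53, 12.36 and 11.55 in metastatic replicates 1 to 5. In non-metastatic replicates 1 to 8 it read 12.46, 12.93, 12.98, 12.99, 12.53, 12.74, 12.77 and 12.35. Metastatic replicates 1, 2 and 5 lay below every non-metastatic tumour and replicates 3 and 4 lay within their range. The difference was -0.87 ± 0.25 (SE) and missed the threshold, with a limma adjusted p of 0.0591. Averaged over both probe sets, CTSK was 11.56 ± 0.76 (SD, n = 5) in metastatic and 12.52 ± 0.24 (SD, n = 8) in non-metastatic tumours, with a two-sided exact permutation p of 0.00233, unadjusted. The same mean differed by -0.82 within the common spike-in pattern, with an unadjusted exact p of 0.0635.

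The call for CTSK rested on the samples and the normalization used. Within the common spike-in pattern the second probe set differed by -0.90 and the first by -0.75, and neither passed (limma adjusted p = 0.224 and 0.240). The second probe set kept its call in 3 of 13 fits that each left out 1 sample, those without metastatic replicate 3 or 4 or non-metastatic replicate 2, and over the other 10 its limma adjusted p ran from 0.0599 to 0.114. Its difference was -0.74 (limma adjusted p = 0.0730) without metastatic replicate 2, the sample with the lowest CTSK. After quantile normalization the second and first probe sets differed by -0.90 and -0.77 and narrowly missed the threshold (limma adjusted p = 0.0508 and 0.0513).

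**Figure D1:**
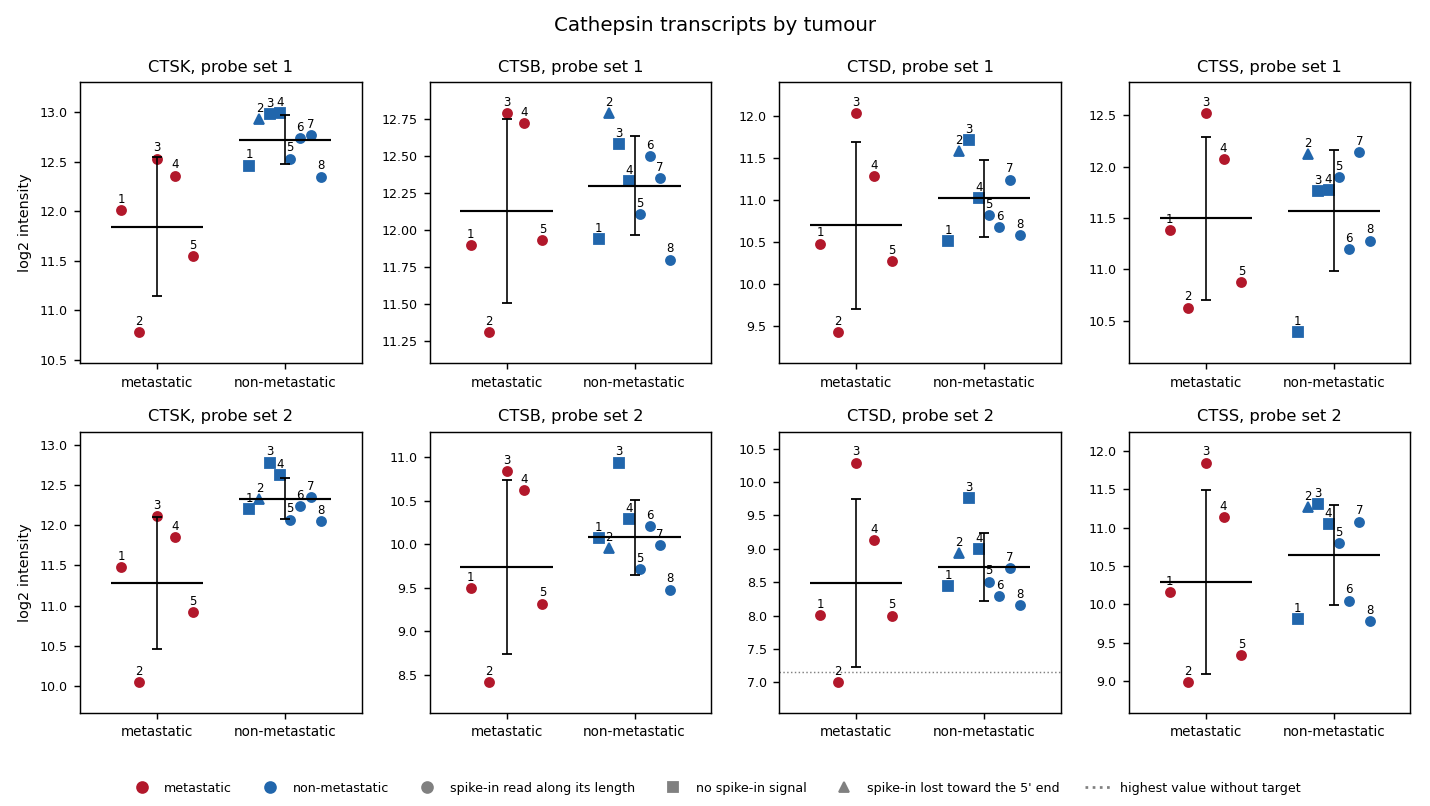
Log2 intensity (vertical axis) of the 8 cathepsin probe sets in metastatic (red, left) and non-metastatic (blue, right) tumours. Each point is a tumour labelled with its replicate number, its shape gives the spike-in pattern, the horizontal bar is the group mean and the whisker 1 SD. The lowest point of the metastatic column is replicate 2 and its highest is replicate 3 in every panel, and CTSK alone had a probe set that passed.

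The 3 named genes whose values followed the second probe set of CTSK most closely over the 13 samples were CTTN, DNASE2 and KXD1. CTTN encodes the actin-binding protein cortactin and had a Pearson correlation of 0.952 and a Spearman correlation of 0.856 with CTSK. DNASE2, a lysosomal nuclease, had 0.949 and 0.868, and KXD1, a subunit of a complex that positions lysosomes, had 0.935 and 0.835. These genes were picked for their likeness and all samples share the group difference, so the coefficients are a description. Within the 5 metastatic samples the Pearson values were 0.960, 0.968 and 0.956, and within the 8 non-metastatic ones 0.822, 0.866 and 0.566.

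CTSB, an abundant lysosomal endopeptidase and exopeptidase, did not separate the groups. Its brighter probe set read 11.90, 11.31, 12.79, 12.72 and 11.93 in metastatic replicates 1 to 5. Non-metastatic tumours ran from 11.80 to 12.79 with a median of 12.34. The metastatic range reached as high as the non-metastatic one and extended below it through replicate 2 alone. The difference was -0.17 (95% confidence interval -0.70 to 0.36, limma adjusted p = 0.690), and that of the other probe set was -0.34 (interval -1.11 to 0.42).

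CTSD, the aspartic cathepsin of lysosomes, was more spread among metastatic tumours than CTSB. Its brighter probe set read 10.48, 9.43, 12.03, 11.28 and 10.27 in metastatic replicates 1 to 5. Non-metastatic tumours ran from 10.51 to 11.71 with a median of 10.92. Replicates 1, 2 and 5 of the metastatic group lay below every non-metastatic tumour, replicate 3 lay above every one, and the difference was -0.32 (95% interval -1.09 to 0.45, limma adjusted p = 0.603). The dimmer probe set ran from 7.01 to 10.29 in metastatic and from 8.16 to 9.76 in non-metastatic tumours, with a difference of -0.24 (interval -1.18 to 0.70). Within the common spike-in pattern that probe set differed by 0.07, with the sign turned.

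CTSS, a cathepsin of antigen-presenting cells that processes the chaperone of MHC class II, also overlapped between the groups. Its brighter probe set read 11.38, 10.63, 12.52, 12.07 and 10.88 in metastatic replicates 1 to 5. Non-metastatic replicates 1 to 8 read 10.39, 12.12, 11.76, 11.77, 11.90, 11.20, 12.14 and 11.28. The lowest value was that of non-metastatic replicate 1 and the highest that of metastatic replicate 3. The difference was -0.07 (95% interval -0.82 to 0.67, limma adjusted p = 0.909), and that of the other probe set was -0.35 (interval -1.32 to 0.63). In RefSeq order (assembly UU_Cfam_GSD_1.0) CTSS and CTSK are adjacent, with 0 protein-coding genes between them.

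The cathepsins varied together among the metastatic tumours. In 8 of 8 probe sets replicate 2 was the lowest metastatic tumour, replicate 4 was the second highest and replicate 3 was the highest. Over all probe sets 5.34% had replicate 2 lowest and replicate 3 highest among metastatic tumours. The pattern was picked after the cathepsin values were seen, and the 8 probe sets read only 4 genes. The shares given here are therefore a description. From highest to lowest the order was replicate 3, 4, 1, 5 and 2 in 7 of 8 probe sets, the exception being the brighter probe set of CTSB, in which replicate 5 at 11.93 stood above replicate 1 at 11.90. The gap between replicates 3 and 2 ran from 1.48 in CTSB to 3.28 in CTSD on the log2 scale. Replicate 2 was the lowest of all 13 samples in 7 of 8 probe sets, as it was in 10.1% of all probe sets. The SD was larger in metastatic than in non-metastatic tumours for 8 of 8 probe sets, against 32.8% of all probe sets.

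The mean level of macrophage and osteoclast markers had the same order among these tumours, though single markers often did not. The mean log2 level of the 21 measured markers was 9.13, 9.01, 8.24, 7.97 and 7.56 in metastatic replicates 3, 4, 1, 5 and 2, and it ran from 7.80 to 9.12 in non-metastatic tumours. Of the 21 markers, 9 had replicate 2 lowest and replicate 3 highest in the metastatic group. Others, such as CD14, C1QA, C1QB, C1QC and MRC1, were highest in replicate 4. CD163, a scavenger receptor of macrophages, had the widest gap of the list, at 10.61 in metastatic replicate 3 and 6.86 in replicate 2. The 3′ minus 5′ value of ACTB, which rises as RNA degrades, had the reverse order, at 1.40, 1.46, 1.99, 2.08 and 2.87 in metastatic replicates 3, 4, 1, 5 and 2. It was highest of all in non-metastatic replicate 2, at 3.14. The spike-in RNAs of that sample also had a 3′ minus 5′ value of 3.54. Its ACTB value therefore cannot be assigned to RNA degradation alone. That sample was above the non-metastatic median in 7 of 8 cathepsin probe sets. The part of the marker levels in the cathepsin levels was not tested. Nor was that of the ACTB value in the order among metastatic tumours. The ACTB value entered only as a covariate in fits of the group difference, given below. In these bulk samples fewer cells of a type and less RNA per cell cannot be told apart.

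With the ACTB value as a covariate the difference of the second CTSK probe set was -0.88 (limma adjusted p = 0.0902). Within the common spike-in pattern with that covariate the second and first CTSK probe sets differed by -0.65 and -0.55 (limma adjusted p = 0.248 and 0.302). Of the osteoclast markers, ACP5, the tartrate-resistant acid phosphatase that CTSK-rich osteoclasts and some macrophages carry, fell in metastatic tumours. It averaged 7.62 ± 0.34 (SD, n = 5) in metastatic and 8.86 ± 0.56 (SD, n = 8) in non-metastatic tumours, a fall of 1.24 ± 0.26 (SE, limma adjusted p = 0.0184) without overlap between the groups at this, its brighter probe set. Groups lay apart in this way, with the metastatic one lower, in 1.45% of all probe sets. Within the common spike-in pattern the brighter probe set of ACP5 differed by -1.02 and missed the threshold (limma adjusted p = 0.0539). The other fell by 1.56 with overlapping groups (limma adjusted p = 0.0223) and also passed within the common pattern, at -1.54 (limma adjusted p = 0.0451). ACP5 was 1 of the 21 markers to pass. The osteoclast receptors CALCR and TNFRSF11A were at or below 5.54 and 6.32 in every sample, under the 7.16 reached without target. Of 14 fibroblast markers 4 fell (CLEC3B, DCN, FAP and THY1) and 0 rose, where 3.7% of all named genes passed as lower. Within the common spike-in pattern CLEC3B and DCN passed, while FAP and THY1 did not (limma adjusted p = 0.175 and 0.133). The median difference of the 14 was -0.40, against 0.05 over all named genes. Their mean level ran from 10.34 to 11.41 in metastatic and from 10.98 to 11.93 in non-metastatic tumours, and its part in the fall of CTSK was not tested. Among other markers 0 of 11 endothelial, 10 smooth muscle, 10 skeletal muscle and 13 lymphocyte genes passed, and 2 of 6 epithelial genes, KRT7 and KRT8, passed as lower. KRT8 had both means under 7.16 and did not pass within the common pattern (limma adjusted p = 0.0719).

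ADAM10 was higher in every metastatic tumour than in any non-metastatic one at its brighter probe set. That probe set read 10.18, 9.57, 9.77, 12.33 and 9.75 in metastatic replicates 1 to 5. In non-metastatic replicates 1 to 8 it read 9.20, 9.55, 8.50, 8.86, 8.94, 9.32, 8.78 and 9.30. The groups were narrowly apart, since the lowest metastatic and the highest non-metastatic tumour were almost level, and metastatic replicate 4 stood far above the rest. Such a separation with the metastatic group higher was found in 1.18% of all probe sets. The means were 10.32 ± 1.15 (SD, n = 5) in metastatic and 9.06 ± 0.34 (SD, n = 8) in non-metastatic tumours. At 1.26 ± 0.38 (SE), 2.40-fold, the difference missed the threshold (limma adjusted p = 0.0723). Its two-sided exact permutation p was 0.000777, unadjusted and the smallest that the 1287 splits allow.

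The dimmer probe set of ADAM10 read 7.98, 6.82, 7.46, 10.50 and 7.26 in metastatic replicates 1 to 5. In non-metastatic replicates 1 to 8 it read 7.41, 6.49, 6.82, 6.88, 6.42, 6.80, 6.69 and 6.88. Here the groups overlapped, 7 of the 8 non-metastatic values were not above the 7.16 reached without target, and replicate 4 was again the highest metastatic tumour. The difference of 1.21 ± 0.46 (SE) did not pass (limma adjusted p = 0.142), and its size is uncertain because most non-metastatic values lie under that level.

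Metastatic replicate 4 set the size of the ADAM10 difference and its spread. Without it the brighter probe set differed by 0.76 and passed (limma adjusted p = 0.0476), while the dimmer one differed by 0.58 (limma adjusted p = 0.149). Leaving out any other single sample gave differences of up to 1.45 at the brighter probe set and no call. After quantile normalization of all 13 samples the brighter probe set differed by 1.42 and passed (limma adjusted p = 0.0390). Within the common spike-in pattern the differences were 1.24 and 1.31 (limma adjusted p = 0.228 and 0.299).

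**Figure D2:**
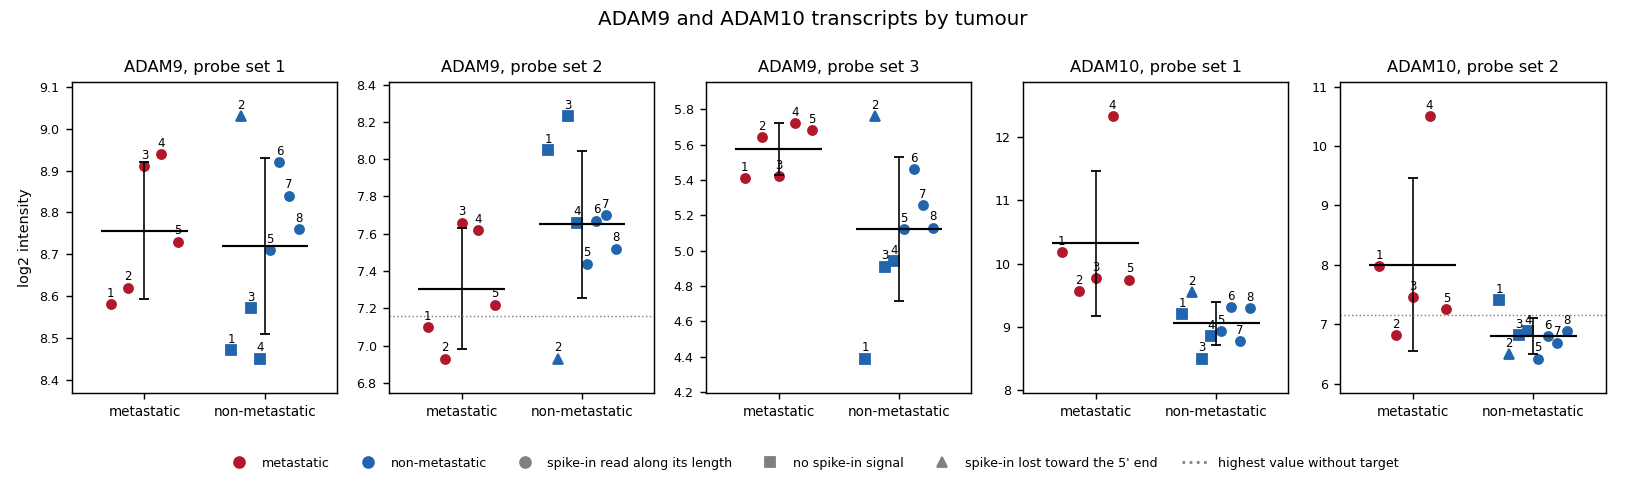
Log2 intensity (vertical axis) of the ADAM9 and ADAM10 probe sets in metastatic (red, left) and non-metastatic (blue, right) tumours, with points, shapes, means and SD whiskers as for the cathepsins. The dotted line marks 7.16, the highest value read without target. ADAM10 in metastatic replicate 4 lies at 12.33 and 10.50, above all other points of its panels, and the 3 ADAM9 probe sets disagree in direction.

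ADAM9, a sheddase and integrin-binding surface protein, gave no common direction over its 3 probe sets. The brightest ran from 8.58 to 8.94 in metastatic tumours, with a median of 8.73, and from 8.45 to 9.03 in non-metastatic tumours, with a median of 8.74. It differed by 0.04 (95% interval -0.24 to 0.31, limma adjusted p = 0.875). The second differed by -0.34 (interval -0.78 to 0.09), and in it non-metastatic replicates 1 and 3, both without spike-in signal, were the highest at 8.05 and 8.23. The third differed by 0.45 (limma adjusted p = 0.168), with 0 values above 5.76, under the 7.16 reached without target.

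**Figure D3:**
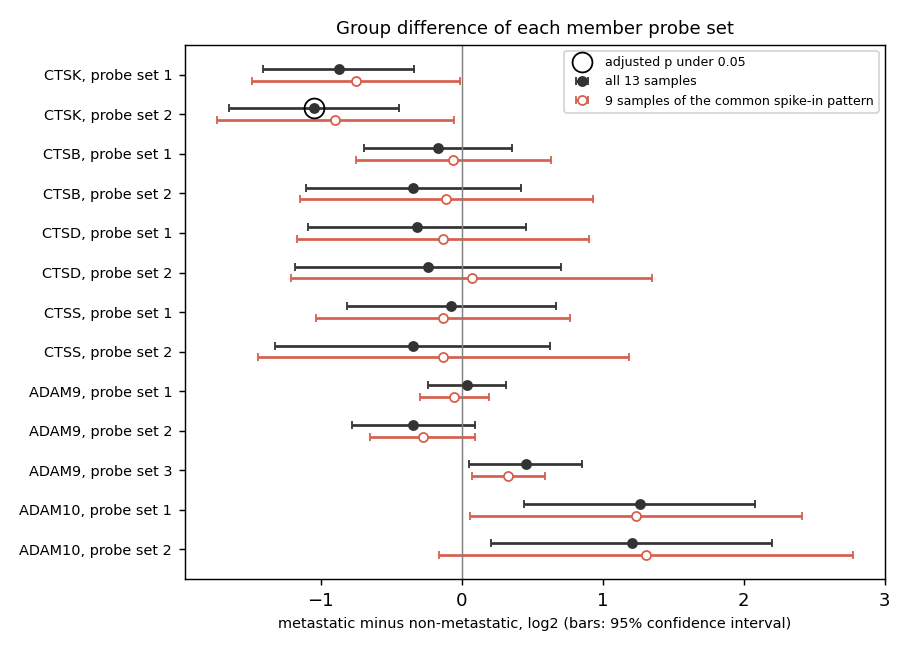
Difference in log2 intensity, metastatic minus non-metastatic (horizontal axis), for each of the 13 probe sets, with 95% confidence intervals from limma over all 13 samples (filled) and over the 9 samples of the common spike-in pattern (open). The circled point, CTSK at -1.05, is the one that passed. The intervals of CTSB, CTSD and CTSS all include 0, and those of ADAM10 reach 2.08 and 2.20 at their upper end.

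Genes around the members gave a clearer difference in another cathepsin. CTSF, a papain-like lysosomal cysteine protease, fell in metastatic tumours at all 4 of its probe sets, and the groups did not overlap at the brightest. There it read 7.49, 8.13, 8.70, 8.82 and 8.20 in metastatic replicates 1 to 5. In non-metastatic replicates 1 to 8 it read 10.03, 10.23, 10.63, 10.37, 10.19, 9.82, 10.04 and 10.23. The whole metastatic range lay below the lowest non-metastatic value, as it did in 1.45% of all probe sets. The means were 8.27 ± 0.53 (SD, n = 5) in metastatic and 10.19 ± 0.24 (SD, n = 8) in non-metastatic tumours, a fall of 1.92 ± 0.21 (SE), 3.80-fold, with a limma adjusted p of 0.000714. Within the common spike-in pattern it differed by -1.80 and passed (limma adjusted p = 0.0116), and it passed in all 35 alternative fits. The order of the cathepsins above did not hold for it, since metastatic replicate 1 was its lowest tumour and replicate 4 its highest among the 5.

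CTSF was the 1 gene to pass, as lower, of 7 measured papain-like cathepsins and legumain outside the members, where 3.7% of all named genes passed as lower at their brightest probe set and 1.65% as higher. The others differed without passing, from -0.65 for the aminopeptidase CTSH to 0.34 for the carboxypeptidase CTSZ. CTSC, which activates serine proteases of immune cells, differed by -0.10 and followed the order of the cathepsins above, at 12.17 in metastatic replicate 3 and 8.30 in replicate 2. Of the 3 cathepsins of other protease classes, CTSA, CTSE and CTSG, 0 passed.

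Inhibitors and other ADAM genes showed no call. Of 10 measured cystatins and related inhibitors 0 passed, with a median difference of 0.16. The cystatin CST6 was uneven, at 10.32 and 10.44 in metastatic replicates 1 and 3 and 4.93 to 5.91 in the other metastatic tumours. In non-metastatic tumours it ran from 4.79 to 7.43. CSTB, the cytosolic inhibitor of cysteine cathepsins, was at 11.97 in metastatic and 12.21 in non-metastatic tumours, a difference of -0.23. CSTA, its close relative, differed by -0.91 (limma adjusted p = 0.0555) with both means below 7.16. Of 15 other ADAM genes 0 passed, with a median difference of 0.05 and both means not above 7.16 in 9 of them.

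Of 15 partners and inhibitors of ADAM10 and ADAM17, 1 was higher and 1 lower, where 1.65% and 3.7% of all named genes were. TSPAN5, a tetraspanin that carries ADAM10 to the cell surface, fell by 1.18 ± 0.18 (SE, limma adjusted p = 0.00406) without overlap between the groups. It read 6.91 to 7.61 in metastatic and 7.74 to 8.87 in non-metastatic tumours. Such a separation with the metastatic group lower was found in 1.45% of all probe sets. Metastatic replicates 2 and 4, at 7.11 and 6.91, were not above the 7.16 reached without target, so the size is uncertain. TSPAN5 fell by 1.28 within the common spike-in pattern as well (limma adjusted p = 0.00751), and 2 of its 3 probe sets passed. The other that passed had overlapping groups and a metastatic mean of 4.83, under 7.16. SFRP1, a secreted Wnt antagonist also described as an inhibitor of ADAM10, passed as higher with a difference of 3.02 ± 0.80 (SE, limma adjusted p = 0.0456), unevenly. It read 10.36 and 10.04 in metastatic replicates 1 and 3, 6.26 and 6.40 in replicates 4 and 5, and 4.39 in replicate 2, against 3.80 to 4.77 in non-metastatic tumours. Only metastatic replicates 1 and 3 were above the 7.16 reached without target, so the size of the difference is uncertain. SFRP1 did not pass within the common spike-in pattern, at 2.99, and kept its call in 3 of 13 fits that each left out 1 sample, with differences from 2.30 to 3.80. The iRhom RHBDF1, which carries ADAM17 to the surface, differed by -1.04 (limma adjusted p = 0.0692), and the ADAM inhibitor TIMP3 differed by 0.56 without passing.

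Of 42 genes with measured transcripts whose proteins ADAM10 or ADAM17 can shed, 1 was higher and 1 lower. Over all named genes 1.65% passed as higher and 3.7% as lower, so these counts were near the background. The proteoglycan SDC1 passed as higher with a difference of 0.57 ± 0.13 (SE, limma adjusted p = 0.0256), and with 0.69 within the common spike-in pattern (limma adjusted p = 0.0332). It read 7.21 to 7.77 in metastatic and 6.60 to 7.12 in non-metastatic tumours, so every non-metastatic value was under the 7.16 reached without target and the size is uncertain. It kept its call in 11 of 13 fits that each left out 1 sample, all but those without metastatic replicate 1 or 4, and in 24 of 35 alternative fits in all. The ephrin receptor EPHB4 fell by 0.77 ± 0.18 (SE, limma adjusted p = 0.0260) with both means not above 7.16, and it differed by -0.70 within the common pattern without passing. The Notch receptors NOTCH1, NOTCH2 and NOTCH3 differed by 0.26, -0.69 and 0.09, and the growth factor HBEGF by 0.44, and none of these passed. N-cadherin (CDH2) differed by 1.62 without passing and was highest in metastatic replicate 4, at 10.78, as ADAM10 was.

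Among genes of the lysosome 8 passed as lower and 0 as higher, in a table where 3.7% of all named genes passed as lower and 1.65% as higher. Of 26 measured hydrolases and activators 5 fell and 0 rose, and of 29 genes of the lysosomal membrane, acidification and delivery 3 fell and 0 rose. The median differences of these lists were -0.28 and -0.23, against 0.05 over all named genes. The hydrolases that fell were the aspartylglucosaminidase AGA (-1.08), the fucosidase FUCA1 (-1.08), the arylsulfatase ARSA (-1.01), the sulfamidase SGSH (-0.42) and NPC2 (-0.97), which hands cholesterol out of the lysosome. MITF, a transcription factor whose family drives lysosomal genes, fell by 1.90 ± 0.34 (SE, limma adjusted p = 0.00939) without overlap between the groups. Separation with the metastatic group lower was found in 1.45% of all probe sets. The MITF family members TFEB and TFE3 did not pass, at 7.29 to 7.58 and 9.67 to 10.13 in metastatic tumours. In non-metastatic tumours TFEB ran from 6.65 to 7.85 and TFE3 from 9.46 to 10.04. The proton pump subunit ATP6V0A1 fell by 0.80 and the cystine exporter CTNS by 0.70. Other probe sets of these genes did not always pass. Those that passed were 2 of 2 for AGA and NPC2, and 1 of 2 for ARSA, SGSH and CTNS. FUCA1 passed at its only probe set, MITF at 4 of 6 and ATP6V0A1 at 1 of 4. When each sample was left out in turn, 7 of these 8 genes lost their call in at least 1 of 13 fits. FUCA1 kept it in 2 fits, ARSA in 12 and MITF in all 13. None of the 8 passed within the common spike-in pattern, where 2.24% of named genes passed as lower. The list medians there were -0.22 and -0.15, and MITF differed by -1.83 (limma adjusted p = 0.0602).

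**Figure D4:**
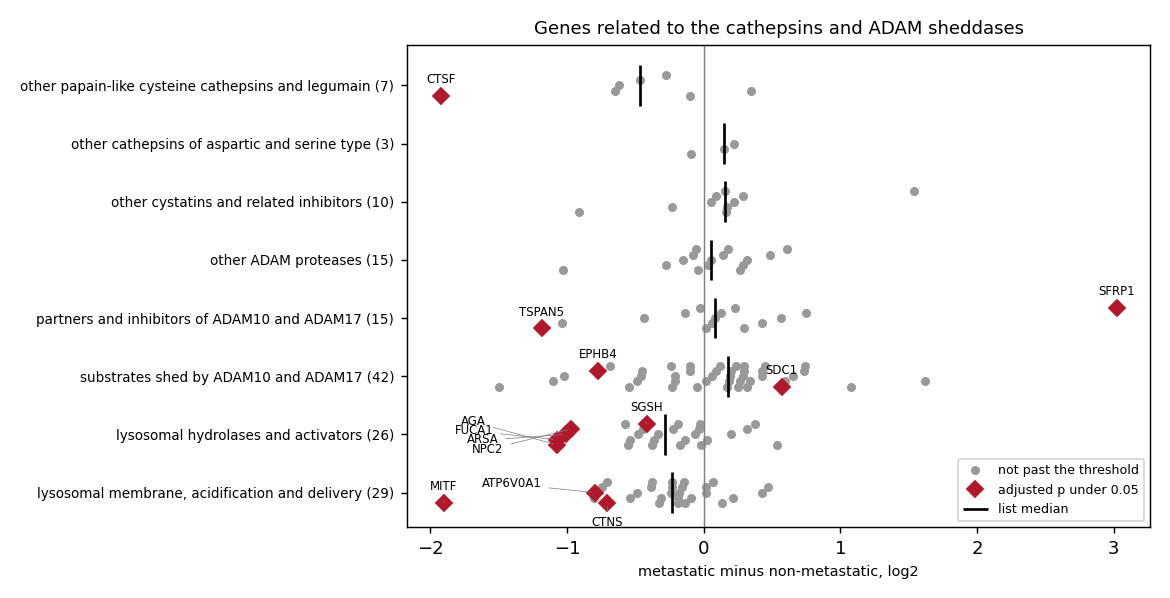
Difference in log2 intensity, metastatic minus non-metastatic (horizontal axis), of each measured gene in 8 lists around the members, with the number of genes in brackets. Red diamonds passed the test and are named, grey points did not, and the black bar is the list median. CTSF at -1.92 and MITF at -1.90 lie farthest left, SFRP1 at 3.02 lies farthest right, and both lysosomal lists have medians below 0.

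The annotated relatives of cathepsin L were read as well, since no row is named CTSL. LOC403708, which RefSeq lists as a pseudogene with CTSL among its synonyms, averaged 9.85 ± 0.42 (SD, n = 5) in metastatic and 9.86 ± 0.47 (SD, n = 8) in non-metastatic tumours at its brighter probe set. The difference was -0.01 (95% interval -0.53 to 0.50), and it was -0.22 (interval -0.65 to 0.21) at the other. Whether these probe sets read a cathepsin L transcript of the tumours cannot be told from the annotation used, and the row was chosen after the members' values were seen.

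ADAM10 in metastatic replicate 4 was set beside its neighbours in RefSeq order, a comparison chosen after the values were seen. Among the 16 protein-coding genes nearest to ADAM10, 8 on each side, 12 had a probe set under their symbol. The next genes on one side, MINDY2, SLTM, RNF111 and CCNB2, were all highest in metastatic replicate 4. SLTM, which encodes a nuclear RNA-binding protein, read 10.22 there and at most 8.87 in the other 12 tumours. RNF111, a ubiquitin ligase of transforming growth factor beta signalling, read 10.69 against at most 9.18, and CCNB2, a mitotic cyclin, 10.27 against at most 9.20. MINDY2, a deubiquitinase, read 9.58 against at most 9.53. On that side MYO1E, the next gene after CCNB2 with a probe set, did not stand out, at 7.19 against 5.74 to 7.60 in the others.

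On the other side LIPC, next to ADAM10, read 6.74 in metastatic replicate 4 and 6.38 to 6.97 in the others, all under 7.16. Farther out on that side, POLR2M and ALDH1A2 were lowest in metastatic replicate 4. They read 6.69 and 4.62 there, both under 7.16, against 7.02 to 8.90 and 4.67 to 10.32 in the other tumours. For ALDH1A2 that value was almost level with the next lowest. ZNF280D and CGNL1, also under 7.16 in metastatic replicate 4, differed there from the median of the others by -1.18 and -0.525. Of the 12 measured neighbours 5 were highest in metastatic replicate 4, and 8.56% of all named genes were. The fifth was AQP9 at 5.89, under 7.16. ADAM10 exceeded the next highest tumour by 2.15 and 2.52 at its probe sets, and 0.168% of all probe sets exceeded it by 2 or more in that sample.

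**Figure D5:**
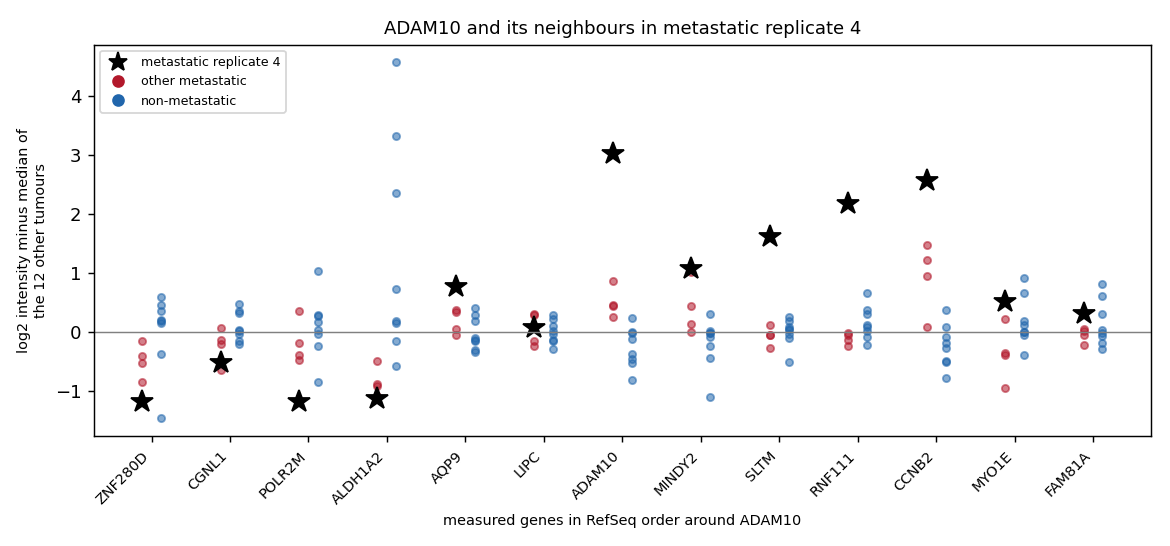
Log2 intensity minus the median of the 12 other tumours (vertical axis) for ADAM10 and its measured neighbours in RefSeq order (horizontal axis, not to scale of distance). Stars are metastatic replicate 4, red points the other metastatic and blue points the non-metastatic tumours. The stars of ADAM10, MINDY2, SLTM, RNF111 and CCNB2, which follow each other, lie above all other points of their columns.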

How the data were processed

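Per the labels' protocols, RNA of 13 tumours was purified on columns, and biotin was added in a single round of 3′ transcription before the Affymetrix arrays were hybridised. The authors deposited 1 table of 43035 probe sets, whose values were read as log2 intensities from their range of 0 to 14.33. How the authors normalized them is not given in the sources used here. They were used as deposited, without the 111 control probe sets. The number of arrays limits the precision.

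Symbols came from the platform annotation: 29264 probe sets had 1 symbol, 439 several and 13332 none, and 27680 named ones were found in RefSeq with 0 changed symbols.

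Groups were compared two-sided in R 4.3.3 by the moderated test of limma 3.58.1, with group as the only term and Benjamini-Hochberg adjustment over 42924 probe sets. Tested on simulated data, the fit recovered 64 of 100 probe sets changed by 1 and 94 of 100 changed by 2, with 12 false calls among 42724. Exact permutation tests used 1287 splits (Python 3.11.15, numpy 2.4.6). Differences are metastatic minus non-metastatic. Spike-in patterns were set from the mean of the 3′ spike-in probe sets (limit 6) and their 3′ minus 5′ value (limit 2).

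The members and gene lists were chosen with earlier results of these data known. The text names all members with all probe sets, up to 6 genes past the threshold of each list at the probe set of highest mean, the 3 genes most like a member that passed, and other genes of the lists as examples chosen after their values were seen. Alternatives, some added after seeing the data, changed samples, covariates, normalization, filter, weights or probe set, used a replicate block, or left out each sample.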

Additional observations from a re-analysis of the deposited data

Results flagged for a closer look

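ADAM10 in metastatic replicate 4 read 12.33 at the brighter probe set, where the next metastatic tumour read 10.18. The gap took up 0.779 of the range of the 5 metastatic values, above the critical value of 0.710. ADAM10 in non-metastatic replicate 1 read 7.41 at the dimmer probe set, where the next of the 8 non-metastatic tumours read 6.88, a gap of 0.535 of the range against a critical value of 0.526. Of 26 groups of values tested, 2 stood out in this way, and chance alone gives about 1 in 20. The same metastatic tumour was highest at the dimmer probe set of ADAM10 (10.50), where its gap did not reach the critical value.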

How the results depend on the processing

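As deposited, 2104 probe sets passed, 1 member probe set in 1 member gene, 0 members at their brightest probe set and 13 genes of the 8 lists around the members (wider genes). Alternatives that moved these counts over 1.5 times follow; the cause was not tested. The common spike-in pattern alone gave 1192 probe sets, 0 member probe sets, 0 member genes and 3 wider genes. Leaving out the samples without spike-in signal gave 207, 0, 0 and 2. Without non-metastatic replicate 2, 4478 probe sets and 20 wider genes passed. The spike-in pattern as a block left 0 member probe sets, 0 member genes and 7 wider genes, and the ACTB covariate 1367, 0, 0 and 8. The common pattern with the ACTB covariate left 842, 0, 0 and 2. Array weights gave 4011, 0 and 0. Quantile normalization gave 1 member at its brightest probe set, ADAM10 (1.42, limma adjusted p = 0.0390), while CTSK lost its call (-0.90, limma adjusted p = 0.0508). The probe set of largest variance gave 1 member, CTSK. The filter at the median mean gave 2 member probe sets and 1 member at its brightest.

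Labels of the groups share replicate numbers, but same-numbered samples did not deviate together (correlations -0.00857 to 0.0782), so the numbers were not taken as pairs. With the replicate block, 10 samples gave 733 probe sets, 0 member probe sets, 0 member genes and 5 wider genes; the same 10 samples with no replicate block gave 1185, 0, 0 and 8.

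Leaving out 1 sample at a time gave 856 to 4478 probe sets, 0 to 2 member probe sets, 0 to 2 member genes, 0 to 1 members at the brightest probe set and 4 to 20 wider genes, and within the common pattern 259 to 1207, 0, 0, 0 and 2 to 6.

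Signs turned only in differences that had not passed. In the common pattern, alone or as a block, CTSD at its dimmer probe set gave 0.0705 and ADAM9 at its brightest -0.0515. ADAM9 gave -0.096 without the samples lacking spike-in signal. With the ACTB covariate that CTSD probe set gave 0.0108 and ADAM9 -0.0199, and with the common pattern as well CTSB gave 0.0927 and 0.155, CTSD 0.177 and 0.433, CTSS 0.117 and 0.215 and ADAM9 -0.0171. The brighter probe set of CTSS gave 0.0918 after quantile normalization and 0.00457 without non-metastatic replicate 2. Array weights gave CTSB 0.0596 and 0.0200, CTSD 0.0502 and 0.237, and CTSS 0.0925 and 0.0884.

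With 1 sample left out, of all 13 or of the common pattern, the brighter and dimmer probe sets ran from -0.335 to 0.145 and from -0.618 to 0.220 for CTSB, from -0.653 to 0.185 and from -0.689 to 0.440 for CTSD, and from -0.390 to 0.143 and from -0.736 to 0.195 for CTSS. ADAM9 at its brightest ran from -0.0975 to 0.0817. CTSK and ADAM10 kept their direction at both probe sets in all alternatives run. Values near 7.16 or below, as for ADAM10 at its dimmer probe set, limit what the array resolves.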
